A study of Mus musculus with 8 samples.

Results

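The genes described here encode enzymes of the pentose phosphate pathway and of NADPH supply. Members were the genes G6pdx, Pgd, Taldo1, Tkt, Me1, Idh1, Pgls, Rpia and H6pd, 9 in all, found on the array through the RefSeq accession that the scanner files give for each probe. No probe matched an accession of Rpia, the ribose 5-phosphate isomerase gene, so it was not analysed here. The other 8 members were measured among 20580 genes tested, and all 8 were well above background on all 8 arrays. Of the 20580, 14104 had a gene symbol. The rest were probe annotations that matched no RefSeq gene, each counted as a gene, so a gene may be counted more than once. Shares of all genes below are shares of the 20580. Where a gene had several probes the brightest was used, which concerned Pgd, Tkt and H6pd with 2 probes each.

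The pentose phosphate pathway branches off glycolysis at glucose 6-phosphate. Its oxidative branch passes electrons to NADP+ and so makes NADPH, the reductant that glutathione reductase, thioredoxin reductase and many detoxifying reductases consume. Its non-oxidative branch shuffles carbon between sugar phosphates, which gives ribose for nucleotides or returns carbon to glycolysis. Cytosolic malic enzyme and cytosolic isocitrate dehydrogenase make NADPH outside the pathway. Several of these genes are known targets of NRF2, a transcription factor encoded by Nfe2l2 that is kept low by the adaptor protein KEAP1.

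Single-colour Agilent arrays, 8 in all and 2 in each of 4 groups, measured messenger RNA of the left kidney. The mice were male and aged 16 weeks. The group WT normal held wild-type kidneys that were not clamped, and KD normal held kidneys of Keap1 knockdown mice that were not clamped. The groups WT IRI and KD IRI held kidneys of these genotypes at day 1 after ischemia-reperfusion injury (IRI): the left renal vessels were clamped for 45 min and released, and the right kidney was left alone. The labels name neither the allele that lowers Keap1 nor the cells in which it acts. They also leave unsaid whether every array is its own animal, so the p-values reflect only how far these samples spread, which may be technical. Each of the 2 slides held 1 array of every group, and the replicate number of the labels is the slide number. The text calls the arrays WT normal 1, WT normal 2 and so on.

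Levels are given as log2 of the processed spot signal over the 75th percentile of the same array, and a change is a difference of group means on that scale with the standard error (SE) of limma. A gene rose or fell where its adjusted p from limma, two-sided and adjusted by Benjamini-Hochberg over the 20580 genes, was under 0.05, with 2 arrays in every group. The number of arrays limits the precision. Between 62.1% and 67.8% of spots were well above background on each array, and no spot was saturated. The tissue label was checked with 13 proximal tubule markers, all well above background on all 8 arrays. Keap1 was at 2.75 and 2.66 (WT normal), 1.5 and 1.40 (KD normal), 2.66 and 2.50 (WT IRI), and 1.33 and 1.04 (KD IRI). It fell by 1.25 on the log2 scale without injury (adjusted p = 0.00400) and by 1.39 with injury (adjusted p = 0.00546), so the arrays labelled KD were lower in both states. Nfe2l2 passed in neither genotype comparison, at -0.18 ± 0.11 (adjusted p = 0.330) and -0.16 ± 0.11 (adjusted p = 0.406). A list of 8 genes held Keap1, Nfe2l2 and their regulators and partners. Of these, Maff (2.13) and Sqstm1 (0.74) rose and Keap1, the gene knocked down, fell in KD normal. Of all genes 6.39% rose and 8.79% fell there. The KD normal arrays of Maff were apart, at 0.49 and 1.42. In KD IRI Keap1 alone passed, beside 3.69% of all genes rising and 3.42% falling.

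The core of the antioxidant response element, to which NRF2 binds with small MAF proteins, was searched for in the promoters of the members. The motif TGACNNNGC was sought on both strands of RefSeq windows that run from 250 bases before to 50 bases after each annotated start (build GRCm38.p6, not the build of the array's own annotation). It lay in a window of 3 of 9 member genes, namely G6pdx, Me1 and Pgd, and in 3 of 12 member windows. Of all 32851 windows 12.4% held it, and of all genes with a window 14.0%. The upstream sequences of G6pdx and Me1 are shown because both hold the motif, while of the pair G6pdx alone passed in the genotype comparisons described below. Each runs 5′ to 3′ on the strand of the gene, with the motif in capitals.
G6pdx, chrX:74428881-74429130, minus strand: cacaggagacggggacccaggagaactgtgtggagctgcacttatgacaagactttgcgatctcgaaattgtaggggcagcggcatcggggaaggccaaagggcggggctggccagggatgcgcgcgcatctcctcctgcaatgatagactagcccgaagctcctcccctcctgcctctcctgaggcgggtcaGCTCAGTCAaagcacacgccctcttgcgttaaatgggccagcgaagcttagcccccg
Me1, chr9:86695912-86696164, minus strand: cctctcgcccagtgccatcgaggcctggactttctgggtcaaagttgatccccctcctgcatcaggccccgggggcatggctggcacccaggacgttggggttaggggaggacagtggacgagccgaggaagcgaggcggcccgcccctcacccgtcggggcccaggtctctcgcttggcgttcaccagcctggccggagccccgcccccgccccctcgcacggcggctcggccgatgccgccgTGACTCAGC
In G6pdx the motif reads in the antisense direction and covers bases -57 to -49 from the start. In Me1 it reads in the sense direction and covers bases -6 to 3, across the start itself. The window of another annotated start of Me1 had no match. The match in Pgd lay at bases 4 to 12 of a second annotated start and not in the window of the first. Taldo1, Tkt, Idh1, Pgls, H6pd and Rpia had no match, which says only that these letters are not in these windows.

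G6pdx encodes glucose 6-phosphate dehydrogenase, the enzyme that commits glucose 6-phosphate to the oxidative branch and makes its first NADPH (gene on chromosome X, 74409483 to 74428880, GRCm38.p6 as for all genes here). Its level was 1.81 and 1.84 (WT normal), 2.49 and 2.62 (KD normal), 2.68 and 2.93 (WT IRI), and 3.65 and 3.60 (KD IRI). The 4 groups did not overlap and stood in that order, with KD normal and WT IRI nearest to each other. Between genotypes G6pdx rose by 0.73 ± 0.10 (SE) without injury (adjusted p = 0.00878) and by 0.82 ± 0.10 with injury (adjusted p = 0.0122). Injured kidneys were higher than uninjured ones by 0.98 ± 0.10 in WT (adjusted p = 0.000477) and by 1.07 ± 0.10 in KD (adjusted p = 0.000146). KD IRI stood 3.48-fold above WT normal, a pair that was not tested.

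Pgd encodes 6-phosphogluconate dehydrogenase, the other NADPH-making step of the oxidative branch (chromosome 4, 149149991 to 149166705). Its level was 3.28 and 3.27 (WT normal), 4.14 and 4.04 (KD normal), 4.25 and 4.54 (WT IRI), and 5.56 and 5.5 (KD IRI). Here too the groups were separate, and the step from WT IRI to KD IRI was the widest between neighbours. Pgd rose by 0.82 ± 0.10 between genotypes without injury (adjusted p = 0.00747) and by 1.13 ± 0.10 with injury (adjusted p = 0.00644). After injury it rose by 1.12 ± 0.10 in WT (adjusted p = 0.000337) and by 1.44 ± 0.10 in KD (adjusted p = 5.60e-05), so that KD IRI was 4.78-fold above WT normal. Its dimmer probe, tested on its own over all kept probes, passed in the same 4 comparisons, with changes of 0.96, 1.05, 1.20 and 1.29 in the order just given.

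Pgls encodes 6-phosphogluconolactonase, which opens the lactone between the 2 dehydrogenase steps (chromosome 8, 71592184 to 71596267). Its level was 2.15 and 2.05 (WT normal), 2.13 and 1.99 (KD normal), 1.98 and 1.97 (WT IRI), and 2.16 and 2.0 (KD IRI). All 8 values lay between 1.97 and 2.16, and Pgls passed in none of the 5 comparisons. By limma its changes were -0.04 ± 0.09 and 0.11 ± 0.09 between genotypes and -0.12 ± 0.09 and 0.023 ± 0.09 after injury in WT and KD, with adjusted p from 0.293 to 0.840.

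Taldo1 encodes transaldolase of the non-oxidative branch (chromosome 7, 141392160 to 141402976). Its level was 6.32 and 6.35 (WT normal), 6.43 and 6.50 (KD normal), 6.65 and 6.79 (WT IRI), and 7.38 and 7.30 (KD IRI). The groups did not overlap, though WT normal and KD normal were close. The genotype difference did not pass without injury (0.13 ± 0.075, adjusted p = 0.280) and passed with injury (0.61 ± 0.075, adjusted p = 0.0122), though not under the normexp background correction, an alternative to the scanner's own (0.76, adjusted p = 0.207). After injury Taldo1 rose by 0.38 ± 0.075 in WT (adjusted p = 0.00601) and by 0.87 ± 0.075 in KD (adjusted p = 0.000108).

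Tkt encodes transketolase, the other carbon-shuffling enzyme of that branch (chromosome 14, 30549131 to 30574724). Its level was 5.27 and 5.25 (WT normal), 5.74 and 5.74 (KD normal), 5.72 and 5.81 (WT IRI), and 6.49 and 6.35 (KD IRI). KD normal and WT IRI overlapped, WT normal lay below both and KD IRI above both. Tkt rose by 0.48 ± 0.074 between genotypes without injury (adjusted p = 0.0110) and by 0.65 ± 0.074 with injury (adjusted p = 0.0102). Neither genotype call of Tkt held under normexp (0.40, adjusted p = 0.643, and 0.83, adjusted p = 0.0873). The rise after injury was 0.51 ± 0.074 in WT (adjusted p = 0.00181) and 0.68 ± 0.074 in KD (adjusted p = 0.000281). A far dimmer probe of Tkt passed with injury between genotypes (1.05, adjusted p = 0.0167) and after injury in KD (0.94, adjusted p = 0.00141). It did not pass without injury between genotypes (0.29, adjusted p = 0.217) or after injury in WT (0.18, adjusted p = 0.352).

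Me1 encodes cytosolic malic enzyme, which makes NADPH from malate (chromosome 9, 86581363 to 86695914). Its level was 4.04 and 4.0 (WT normal), 4.35 and 4.35 (KD normal), 2.88 and 2.62 (WT IRI), and 2.80 and 2.64 (KD IRI). Both injured groups lay below both uninjured ones and overlapped each other. Me1 fell by 1.27 after injury in WT (SE 0.10, adjusted p = 0.000220) and by 1.63 in KD (SE 0.10, adjusted p = 3.78e-05). The genotype difference was 0.33 ± 0.10 without injury (adjusted p = 0.0736, and 0.0469 with a replicate block) and -0.029 ± 0.10 with injury (adjusted p = 0.885).

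Idh1 encodes cytosolic isocitrate dehydrogenase, which makes NADPH from isocitrate (chromosome 1, 65158616 to 65186479). Its level was 0.86 and 1.04 (WT normal), 1.83 and 1.84 (KD normal), 0.87 and 0.65 (WT IRI), and 0.81 and 0.52 (KD IRI). KD normal stood above the other 3 groups, which overlapped in part. Idh1 rose by 0.89 ± 0.13 between genotypes without injury (adjusted p = 0.00966) and differed by -0.092 ± 0.13 with injury (adjusted p = 0.691). It fell by 1.17 after injury in KD (SE 0.13, adjusted p = 0.000299), whereas its change in WT was -0.19 ± 0.13 (adjusted p = 0.271).

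H6pd encodes hexose 6-phosphate dehydrogenase, which carries out the first steps of the oxidative branch inside the endoplasmic reticulum (chromosome 4, 149979474 to 150009023). Its level was 3.90 and 3.99 (WT normal), 4.41 and 4.63 (KD normal), 4.69 and 5.31 (WT IRI), and 4.82 and 4.79 (KD IRI). The arrays of WT IRI were the farthest apart of any group for a member, and KD IRI lay between them. H6pd rose by 1.05 ± 0.19 after injury in WT (adjusted p = 0.00418) and changed by 0.28 ± 0.19 in KD (adjusted p = 0.230). The KD change passed under quantile normalization (0.68, adjusted p = 0.0225) and with WT IRI 1 or WT IRI 2 left out (adjusted p = 0.0351 and 0.0352). Between genotypes it differed by 0.57 ± 0.19 without injury (adjusted p = 0.0853) and by -0.20 ± 0.19 with injury (adjusted p = 0.546). Without WT IRI 2, the higher of that pair, the rise in WT was 0.74 and still passed, and the injured genotype difference was 0.11. Its dimmer probe gave the same calls.

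**Figure D1:**
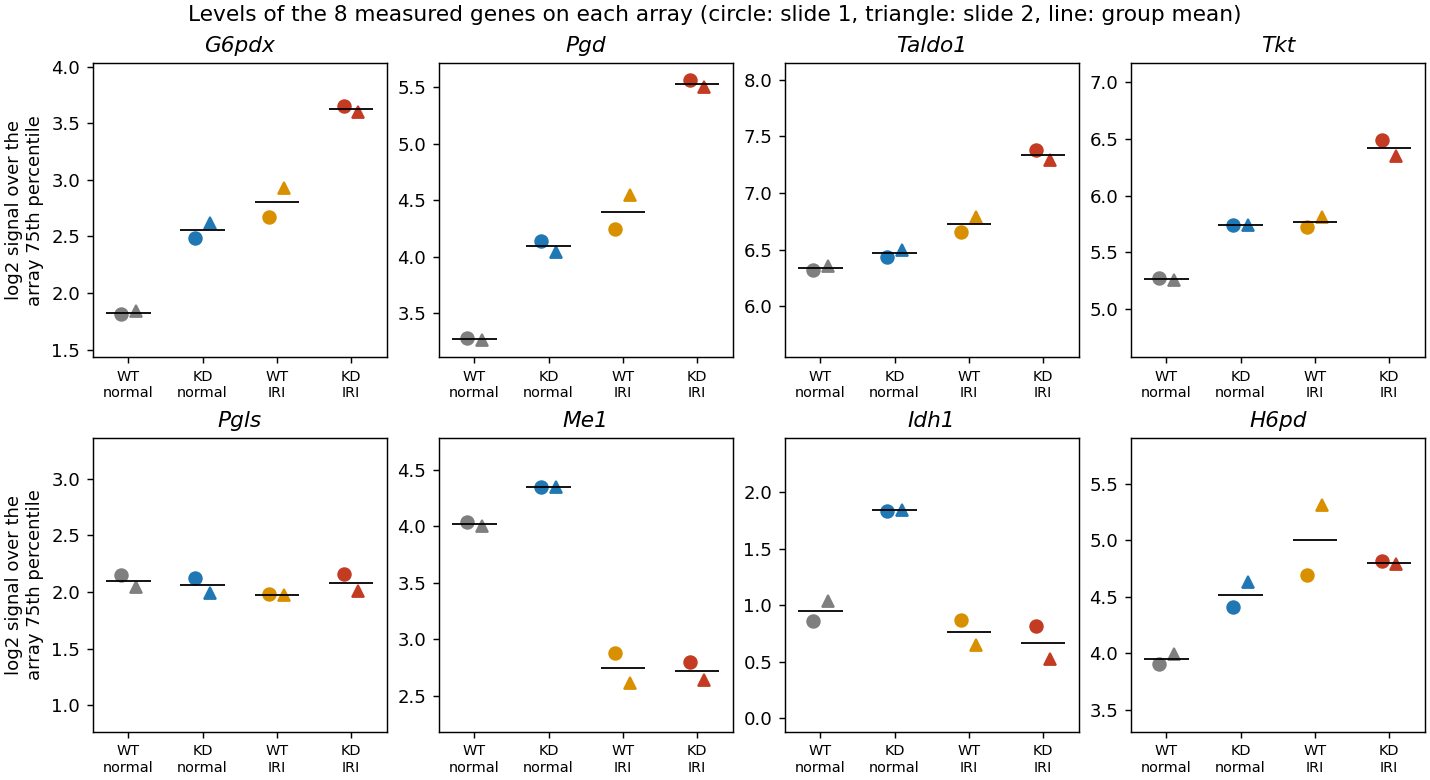
Level of each measured member (vertical axis, log2 of signal relative to the 75th percentile of the array) in the 4 groups (horizontal axis), with a point for each array, circles for slide 1 and triangles for slide 2, and a line for the group mean. G6pdx, Pgd, Taldo1 and Tkt climb from WT normal to KD IRI, Me1 drops in both injured groups, Idh1 is highest in KD normal, and Pgls stays between 1.97 and 2.16.

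What lower Keap1 goes with in uninjured kidney is the question of KD normal against WT normal. Both dehydrogenases of the cytosolic oxidative branch, Tkt and Idh1 rose, 1.66-fold for G6pdx, 1.76-fold for Pgd, 1.39-fold for Tkt and 1.85-fold for Idh1. Thus 4 of 8 members rose and 4 did not pass, while of 20580 genes 6.39% rose and 8.79% fell, 15.2% in either direction. At an unadjusted limma p under 0.05, 6 members were higher and 0 lower, beside 14.6% of all genes higher and 18.3% lower. The members' median change was 0.53, against -0.027 over all genes. The arrays of the genotypes did not overlap in 7 of 8 members and in 64.4% of all genes, so separation of the arrays says little about the members. Within slides the change was 0.68 and 0.78 for G6pdx, 0.86 and 0.78 for Pgd, 0.48 and 0.48 for Tkt, and 0.97 and 0.80 for Idh1. The calls rested on both wild-type arrays. Without WT normal 1 0 of 8 members passed in limma (5 at an unadjusted p under 0.05) and without WT normal 2 likewise 0 (5), with adjusted p of these 4 genes from 0.0593 to 0.0838 and with 270 and 119 genes called in place of 3124. With WT IRI 1 or WT IRI 2 left out, Me1 and H6pd passed as well, which made 6 members.

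KD IRI against WT IRI puts that question to the injured kidney. G6pdx, Pgd, Taldo1 and Tkt rose, 1.77-fold, 2.20-fold, 1.53-fold and 1.57-fold in that order. These are 4 of 8 members, while of all genes 3.69% rose and 3.42% fell, 7.11% in either direction, and at an unadjusted p under 0.05 limma gave 4 members higher and 0 lower, beside 12.7% of all genes higher and 14.1% lower. The median change was 0.36, against -0.042 over all genes. The arrays did not overlap in 5 of 8 members and in 57.0% of all genes, about the same share. Within slides the changes were 0.98 and 0.67 for G6pdx, 1.31 and 0.96 for Pgd, 0.72 and 0.51 for Taldo1, and 0.76 and 0.54 for Tkt. Me1, Idh1, Pgls and H6pd did not pass, with changes between -0.20 and 0.11. With KD IRI 1 left out 1 member passed, Pgd, and with KD IRI 2 left out 0 passed in limma (4 at an unadjusted p under 0.05), with adjusted p of the 4 genes from 0.0616 to 0.0895. A fit of the 4 arrays of this comparison alone gave 0 members (4 at an unadjusted p under 0.05, limma adjusted p from 0.0551 to 0.0694).

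**Figure D2:**
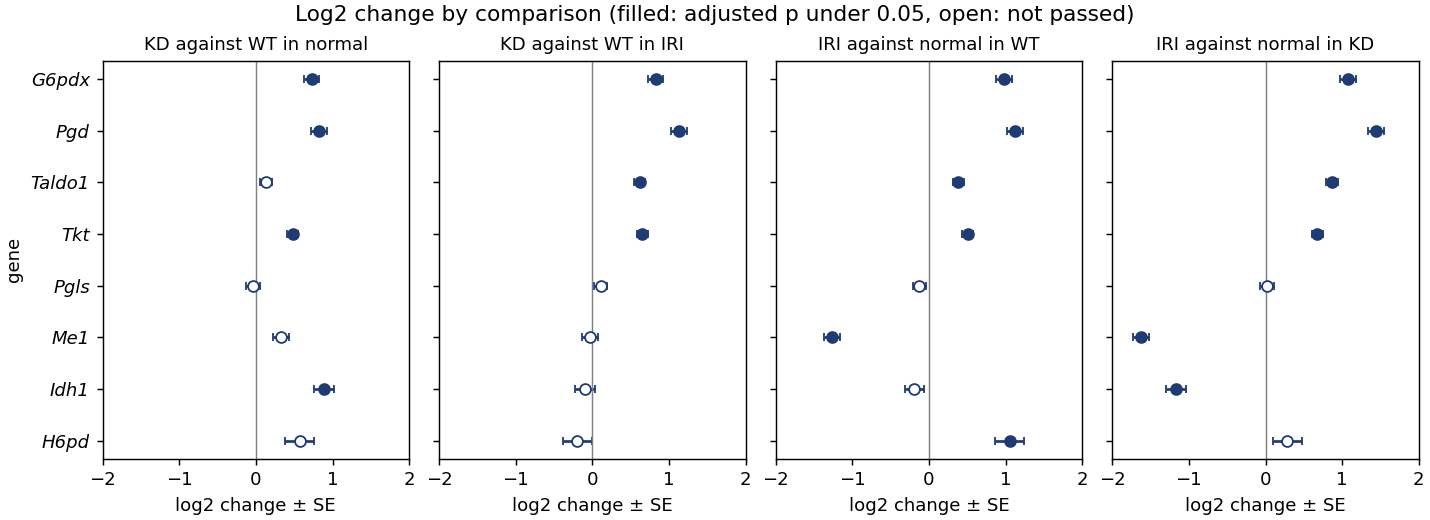
Log2 change of each member (horizontal axis, point with SE of limma) in 4 comparisons, with genes on the vertical axis; filled points passed at an adjusted p under 0.05 and open points did not. G6pdx, Pgd and Tkt are filled and right of 0 in all 4 panels, and Me1 is filled and left of 0 in both injury panels.

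Injury moved the members in both directions. In WT, where the comparison shows the response of a wild-type kidney at day 1, G6pdx, Pgd, Taldo1, Tkt and H6pd rose, Me1 fell, and Idh1 and Pgls did not pass. That is 5 of 8 rising and 1 of 8 falling, while of all genes 20.6% rose and 25.2% fell, 45.8% in either direction. In KD, the response of the knockdown, G6pdx, Pgd, Taldo1 and Tkt rose, Me1 and Idh1 fell, and Pgls and H6pd did not pass. These 6 of 8 calls stand beside 27.5% of all genes rising and 31.8% falling, 59.3% in either direction. With 8 members the count in either direction is near that share, so it says little about the members. The members' median change was 0.45 in WT and 0.48 in KD, against -0.080 over all genes in each. Within slides the WT changes were 0.86 and 1.09 for G6pdx, 0.97 and 1.28 for Pgd, 0.33 and 0.44 for Taldo1, 0.46 and 0.56 for Tkt, 0.79 and 1.32 for H6pd, and -1.16 and -1.38 for Me1. Within slides the KD changes were 1.16 and 0.98 for G6pdx, 1.42 and 1.46 for Pgd, 0.94 and 0.80 for Taldo1, 0.74 and 0.61 for Tkt, -1.55 and -1.70 for Me1 and -1.02 and -1.32 for Idh1. The genotype comparisons use the same arrays. Under normexp the WT changes of Taldo1 (0.16, adjusted p = 0.755) and Tkt (0.38, adjusted p = 0.434) did not pass. Under quantile normalization all called rises were larger than reported and all called falls smaller. The WT changes were then 1.10 for G6pdx, 1.37 for Pgd, 0.80 for Taldo1, 0.88 for Tkt, 1.36 for H6pd and -1.07 for Me1. The KD changes were 1.31 for G6pdx, 1.82 for Pgd, 1.29 for Taldo1, 1.14 for Tkt, -1.36 for Me1 and -1.06 for Idh1.

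The interaction subtracts the injury response in WT from that in KD, and tests whether genotype and injury effects differ from a sum on the log2 scale. Of 8 members 1 rose and 1 fell in it, while of all genes 3.79% rose and 2.81% fell, 6.60% in either direction. For Taldo1 the response to injury was larger in KD, by 0.48 ± 0.11 (adjusted p = 0.0467; 0.61 and 0.36 within slides). Idh1 differed the other way, by -0.98 ± 0.18 (adjusted p = 0.0335; -1.03 and -0.93 within slides), with a genotype difference of 0.89 without and -0.092 with injury. The interaction did not pass for G6pdx (0.097 ± 0.14, adjusted p = 0.718), Pgd (0.32 ± 0.15, adjusted p = 0.228), Tkt (0.17 ± 0.10, adjusted p = 0.352), Me1 (-0.36 ± 0.15, adjusted p = 0.178), Pgls (0.15 ± 0.13, adjusted p = 0.510) or H6pd (-0.77 ± 0.27, adjusted p = 0.131). Leaving out WT normal 1, WT normal 2, KD normal 1, KD normal 2, KD IRI 1 or KD IRI 2 left 0 members past the threshold in limma (2 or 3 at an unadjusted p under 0.05), with adjusted p between 0.0523 and 0.160 for both genes. Without WT IRI 1, Idh1 (adjusted p = 0.0456) and H6pd (-1.08, adjusted p = 0.0153) passed and Taldo1 did not (adjusted p = 0.0695).

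**Figure D3:**
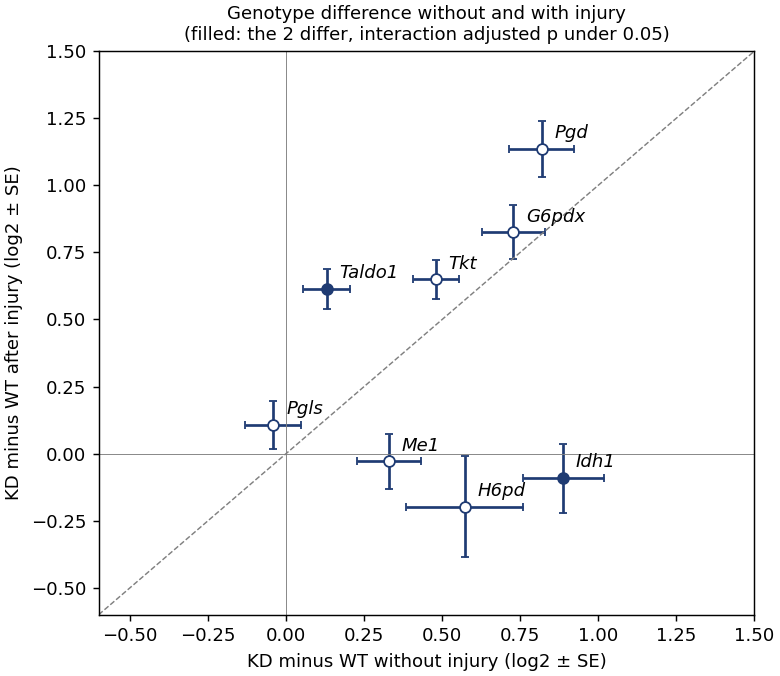
Genotype difference of each member without injury (horizontal axis) and with injury (vertical axis), as log2 KD minus WT with the SE of limma; the dashed line marks equal differences and filled points passed the interaction. Taldo1 lies above the line at 0.13 and 0.61, and Idh1 below it at 0.89 and -0.092.

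Other genes of the pentose phosphate pathway and of ribose use were measured for 10 of 12 listed. Between genotypes 1 rose and 9 did not pass without injury (median 0.13), and 1 fell and 9 did not pass with injury (median 0.10). The gene that rose was G6pd2, an intronless copy of G6pdx, which was not well above background in WT normal and at least 1.89-fold higher in KD normal (adjusted p = 0.0181); whether its probe also catches G6pdx was not tested. The one that fell was Shpk, the kinase that makes sedoheptulose 7-phosphate (-0.78, adjusted p = 0.0312). Pgm2, which interconverts ribose phosphates, was at 0.50 ± 0.33 without injury (adjusted p = 0.337), and G6pd2 at 0.76 ± 0.19 with injury (adjusted p = 0.0599). After injury 4 rose and 4 fell in WT, and 3 rose and 4 fell in KD. Beside these counts, and those of the lists and markers below, stand the shares of all genes passing in either direction. Between genotypes these were 15.2% without and 7.11% with injury. After injury they were 45.8% in WT and 59.3% in KD, and 6.6% passed the interaction. Pgm2 rose by 1.62 in WT and 1.31 in KD. Tigar, a phosphatase that turns flux toward the pathway, rose by 0.50 and 0.90, and Prps1, a phosphoribosyl pyrophosphate synthetase, by 0.51 in WT. Shpk fell by 1.03 in WT and fell by 1.62 in KD, the ribokinase gene Rbks fell by 1.01 and fell by 1.06, and Prps2 fell by 0.95 and fell by 0.66.

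Other possible makers of NADPH and the NAD kinases were measured for 11 of 12 listed. The list was not limited to enzymes that prefer NADP+: those of Me2 and Mthfd2 mainly use NAD+ and so make mostly NADH. After injury 3 rose and 5 fell in WT (median -0.18), and 3 rose and 7 fell in KD (median -0.73). Mthfd2, of mitochondrial folate metabolism, rose by 3.06 in WT and 2.39 in KD, and Me2, a mitochondrial malic enzyme gene, by 0.64 and 0.81. These rises are therefore not rises of enzymes that mainly make NADPH. Idh2, the mitochondrial counterpart of Idh1, changed by -1.64 in WT and -1.88 in KD, the folate dehydrogenase gene Aldh1l1 by -1.55 and -2.20, and the mitochondrial NAD kinase gene Nadk2 by -1.23 and -1.35, all past the threshold. Aldh1l2, the mitochondrial relative of Aldh1l1, rose by 1.80 in WT. It was not well above background in KD normal, where it was at least 2.14-fold lower than in WT normal, and the genotype difference with injury was -1.20 (adjusted p = 0.0133). Glud1, glutamate dehydrogenase, rose by 0.57 and Aldh1l1 by 0.49 in KD normal, and both passed the interaction (-0.76 and -0.65). Counts between genotypes were 2 rising and 1 falling without injury and 1 falling with injury. The largest change that did not pass was that of Me3 in both (-0.66 ± 0.19, adjusted p = 0.0606, and -0.74 ± 0.19, adjusted p = 0.0635).

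Of the genes whose products consume NADPH, 26 were measured of 28 listed. Between genotypes 7 rose and 3 fell without injury, and 7 rose and 19 did not pass with injury, with medians of 0.13 and 0.23. Cbr3, a carbonyl reductase gene, rose by 3.55 without and 3.12 with injury. Akr1b8, an aldo-keto reductase gene, rose by 2.42 and 1.45, the quinone reductase gene Nqo1 by 1.34 and 2.05, the thioredoxin reductase gene Txnrd1 by 1.02 and 1.44, and the glutathione reductase gene Gsr by 0.42 and 0.79. In KD normal the NADPH oxidase subunit gene Cybb (-0.98), Txnrd3 (-0.62) and Fdxr (-0.54) fell. After injury 8 rose and 11 fell in WT, and 11 rose and 10 fell in KD. The xylulose reductase gene Dcxr fell by 1.78 in WT and fell by 2.23 in KD. Txnrd3 passed the interaction (1.18, adjusted p = 0.0198).

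The genes that supply or divert glucose 6-phosphate were measured for 16 of 17 listed. Hk2, a hexokinase gene, rose by 1.80 and 1.79 between genotypes without and with injury, and after injury by 4.20 in WT and 4.19 in KD. Slc2a1, a glucose transporter gene, rose by 0.61 and 0.58 between genotypes and by 0.54 and 0.51 after injury. G6pc, the catalytic subunit of glucose 6-phosphatase, changed after injury by -1.86 in WT and -4.89 in KD, and its transporter gene Slc37a4 by -1.19 and -2.77, all past the threshold. Both passed the interaction (-3.03 and -1.58), and both were lower in KD IRI than in WT IRI (-1.91 and -1.01). Without injury the KD arrays were the higher ones. G6pc was at 4.88 and 4.64 (WT normal) and at 5.29 and 6.49 (KD normal), the latter far apart. Slc37a4 was at 5.65 and 5.60 (WT normal) and at 6.06 and 6.34 (KD normal). Gpi1, the glycolytic isomerase gene whose product competes with that of G6pdx for substrate, was at 0.19 ± 0.065 (adjusted p = 0.0871) and 0.11 ± 0.065 (adjusted p = 0.343) between genotypes and changed after injury by -0.23 (adjusted p = 0.0233) in WT and -0.32 (adjusted p = 0.00450) in KD. Counts were 3 rising and 3 falling between genotypes without injury, 2 and 2 with injury, 4 and 8 after injury in WT, and 4 and 7 in KD.

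For each member the 2 named genes with the most similar profile were sought, by the root-mean-square (RMS) difference over the 8 arrays after centring each gene on its WT normal mean, among 14103 other genes with a symbol. They were Pphln1 and Ifrd1 for G6pdx (RMS 0.12 and 0.14), Wdr77 and Trim16 for Pgd (RMS 0.17 and 0.19), Nol11 and Cse1l for Taldo1 (RMS 0.071 and 0.08), and Nup50 and Ddx27 for Tkt (RMS 0.087 and 0.097). For the other members they were Letm1 and Faah for Me1 (RMS 0.07 and 0.087), Nus1 and Slc35e3 for Idh1 (RMS 0.13 and 0.15), and Glod4 and Trappc5 for Pgls (RMS 0.026 and 0.03). For H6pd the nearest was Sema3f (RMS 0.097). No member was among the nearest genes of another member.

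Markers of other cell types also differed between the groups, and in whole kidney fewer cells of a type and less RNA per cell cannot be told apart. The summed signal of 8 neutrophil markers of 12 listed, relative to the array's 75th percentile, was 0.368 and 0.362 (WT normal), 0.814 and 6.27 (KD normal), 49.1 and 106 (WT IRI), and 52.9 and 58.8 (KD IRI). The neutrophil genes Csf3r, Cxcr2, Mmp8, S100a8 and Retnlg were not well above background in WT normal. For 12 monocyte and macrophage markers of 13 the sums ran from 6.45 to 8.29 in the uninjured groups and from 19.1 to 32.5 in the injured ones. For 13 proximal tubule markers they ran from 925.5 to 1044 without injury, and were 438 and 324 (WT IRI) and 347 and 289 (KD IRI). WT IRI 2, high for H6pd, was also the highest array for neutrophil and for monocyte and macrophage markers. Fat markers (5 of 6) ran from 1.29 to 10.9, with 10.9 and 2.49 within WT normal, and adrenal markers (2 of 5) from 0.202 to 0.635. Loop, distal tubule and collecting duct markers (9 of 9) were at 404 and 416 (WT normal), 339 and 375 (KD normal), 256 and 236 (WT IRI), and 235 and 216 (KD IRI). Of these 4 fell between genotypes without injury, such as Calb1 (-0.79) and Slc12a3 (-0.80), 1 with injury, and 8 and 9 after injury in WT and KD; Pvalb was not well above background in either injured group. Endothelial and stromal markers (7 of 7) ran from 26.3 to 31.1 without injury and from 66.1 to 97.1 with injury, and 5 of 7 rose after injury in each genotype. Erythroid markers (4 of 7) ran from 19.9 to 224 and lymphocyte markers (6 of 9) from 0.241 to 0.730. Between genotypes after injury, 0 of 8 neutrophil and 0 of 12 monocyte and macrophage markers passed in limma (0 and 2 at an unadjusted p under 0.05), and 3 of 13 proximal tubule markers fell. Of 6 cell division genes all rose after injury in both genotypes, and 5 passed the interaction, such as Cdk1 (2.29) and Mki67 (2.74). In KD normal against WT normal 3 of the 6 fell (5 lower at an unadjusted limma p under 0.05, median -1.22), among them Mki67 (-1.35), and in KD IRI against WT IRI 2 rose (median 1.27). The part of these cells and of cell division in the members' changes was not tested.

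**Figure D4:**
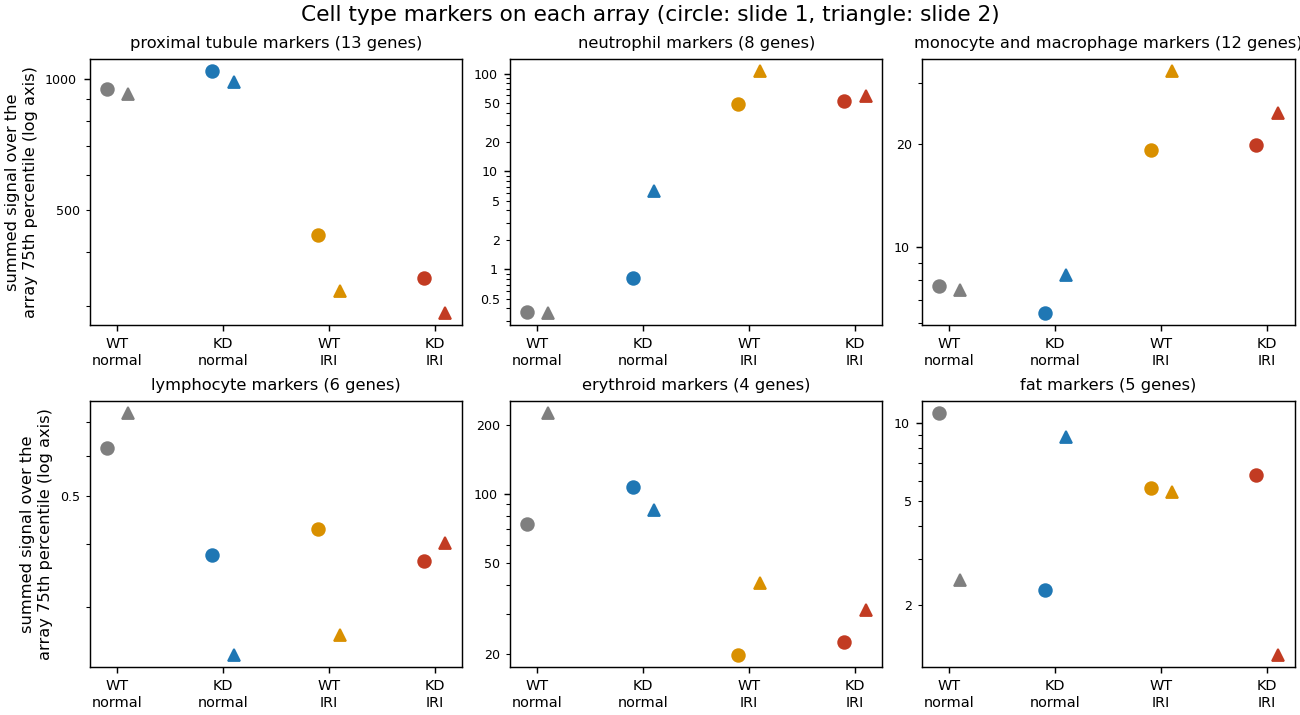
Summed signal of each marker list relative to the array's 75th percentile (vertical axis, log scale) in the 4 groups (horizontal axis), with a point per array, circles for slide 1 and triangles for slide 2. Neutrophil markers lie between 0.362 and 6.27 without injury and between 49.1 and 106 with injury, and proximal tubule markers between 925.5 and 1044 without injury and between 289 and 438 with injury.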

How the data were processed

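Single-colour arrays from 8 kidney samples were analysed. Per the file headers, each deposited spot value is a fluorescence intensity, not log-transformed, that Feature Extraction 10.7.3.1 (Agilent) corrected for background, and per the labels 300 ng of total RNA was labelled with Cy3 for each. A deposited table for all samples gives log2 values. Set against scanner values centred on each probe's median, its columns gave r of at least 0.9999, and their medians were 0.160 and 0.125 (WT normal), 0.0952 and 0.0564 (KD normal), -0.0746 and -0.0822 (WT IRI), and -0.136 and -0.117 (KD IRI). Its scaling was inferred and is not stated in the sources used here.

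Control and outlier spots were left out, log2 values were set against each array's 75th percentile, and repeated spots were averaged by probe. Kept were 27408 of 41174 probes, those with a value on all 8 arrays and well above background (by most spots) on both arrays of at least 1 group. RefSeq accessions (GRCm38.p6 table) named 26690 probes, and the brightest probe stood for a gene.

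The R package limma (3.58.1, under R 4.3.3) estimated group means over all 8 arrays, with an intensity trend, for 5 comparisons (4 residual degrees of freedom; the prior added a median of 2.94). The members and gene lists were chosen with earlier results of these data known. From each pathway list the rule takes up to 3 largest rises and falls and the largest change that did not pass, of which not every gene is given, and some genes are not reported here; Txnrd1, Gsr, Gpi1, Cdk1, Mki67, Calb1 and Slc12a3 lie outside it and were chosen after their values were seen. Replicate numbers pair the samples through the slide: differences between replicates 1 and 2 correlated across genes, which are not independent replicates, with r between 0.0216 and 0.262 over 6 pairs of groups. Where neither array of a group was well above background, the fold is a bound, from the bright group's mean against, per array, the higher of the dim signal and the lowest signal well above background.

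Alternatives were quantile normalization, normexp correction (offset 50, on median spot and background signals), the deposited log2 table, other filters on dim probes, no intensity trend, a replicate block, only the arrays compared, averaging a gene's probes, leaving out each array, and, chosen after seeing the data, each probe tested alone.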

Additional observations from a re-analysis of the deposited data

Results flagged for a closer look

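Taldo1 responded more to injury in the knockdown than in wild-type kidney, and the difference between the injury responses itself passed the test (0.48, limma adjusted p = 0.0467). The response was positive on both slides in both genotypes. The difference did not pass in limma under quantile normalization (adjusted p = 0.0571) or normexp (adjusted p = 0.389). It also did not pass without the filter on dim probes (adjusted p = 0.118) or without an intensity trend (adjusted p = 0.0910). As single arrays were left out the difference ran from 0.42 to 0.55, and the call was lost in most of these fits.

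Idh1 fell after injury in the knockdown and did not pass in wild-type kidney, and here too the difference between the responses passed (-0.98, limma adjusted p = 0.0335). It was higher in KD normal than in WT normal on both slides (0.89), and its difference between KD IRI and WT IRI was small and did not pass (-0.092 ± 0.13, adjusted p = 0.691). The difference between the responses passed in limma under quantile normalization and normexp. It did not pass without the filter on dim probes (adjusted p = 0.0626) or without an intensity trend (adjusted p = 0.0555). As single arrays were left out the difference between the responses ran from -1.13 to -0.83, and the call was lost in most of these fits. The causes were not tested.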

How the results depend on the processing

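Of the alternative counts of members past the threshold 68 stayed within 1.5 times the reported count and 16 were lower. The replicate block, which is also the slide block, gave 6, 5, 4, 6 and 2 members past the threshold for injury in WT, genotype without injury, genotype with injury, injury in KD and the interaction; the added member was Me1, and it changed no other member's call. In the genotype comparison with injury, 2 members passed under normexp (G6pdx and Pgd) and 0 in a fit of those arrays alone (4 at an unadjusted limma p under 0.05). The interaction passed for 1 member under quantile normalization (Idh1), 1 under normexp (Idh1), 0 without the filter on dim probes and 0 without an intensity trend (4 and 3 at an unadjusted limma p under 0.05). As single arrays were left out the count ran from 0 to 6 for genotype without injury, 0 to 4 for genotype with injury, 0 to 2 for the interaction, 6 to 7 for injury in KD, and was 6 throughout for injury in WT. For the 20 member changes called outside the interaction, every alternative value kept its direction, and 178 of 189 from other settings and 145 of 160 from leaving out an array stayed past the threshold. Calls over all genes changed by more than 1.5 times for injury in WT (9432; 5272 under normexp, 15129 without the filter, 5898 at the lowest without 1 array), injury in KD (12202; 6976 under normexp), genotype without injury (3124; 1314 under normexp, 2001 without the filter, 119 at the lowest without 1 array), genotype with injury (1463; 930 without a trend, 66 in a fit of those arrays alone, 24 at the lowest without 1 array) and the interaction (1359; 739 without a trend, 550 without the filter, 6 at the lowest without 1 array). Normexp moved the median of all genes from -0.080 to 0.20 for injury in WT and from -0.080 to -0.34 for injury in KD; the cause was not tested. With an array left out the remaining array of that group is assumed to vary like the other groups.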
